A study of Mus musculus with 6 samples.

Results

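The genes described here carry the signal of G protein-coupled receptors to cyclic AMP in lung group 2 innate lymphoid cells (ILC2s), tissue lymphocytes without antigen receptors that release type 2 cytokines. They were 35 named genes of G protein subunits, an adenosine receptor, adenylyl cyclases, phosphodiesterases, protein kinase A, the CREB family, RGS proteins, a receptor kinase and arrestins. All 35 were rows of the deposited table of 18478 genes, and 34 of them passed the filter on low counts that left 14084 genes for testing. Libraries came from CB2 KO mice, labelled as knocked out for cannabinoid receptor 2, and from WT mice, with 3 in each group. Donors in both groups were BALB/c mice of 6 weeks, primed with IL-33, an alarmin that activates ILC2s, in 3 intranasal injections of 1 µg each. Sorted cells then spent 24 h in culture at 10 ng/mL of both IL-2 and IL-7 before RNA was taken. The labels do not say how the knockout allele was made, whether mice were pooled, or whether replicates were separate mice, so the tests measure only the spread between these libraries, which may be technical.

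Heterotrimeric G proteins consist of an alpha subunit and a beta-gamma pair and are switched on by receptors at the cell surface. Alpha subunits of the Gs class stimulate adenylyl cyclases, which make cyclic AMP, and those of the Gi class inhibit them; CB2 is a Gi-coupled receptor. Cyclic AMP activates protein kinase A (PKA), which phosphorylates CREB-family transcription factors, and phosphodiesterases break it down. RGS proteins speed the return of alpha subunits to the inactive state, while receptor kinases and arrestins silence the receptors. In lymphocytes, a rise in cyclic AMP is known mainly for restraining activation and cytokine release.

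Library depth was between 17141698 and 21621008 estimated counts. One library, labelled CB2 KO replicate 1, was separated from the other 5 by principal component 1, which held 37.6% of the variance, so fold changes are also given without it. It held the highest or lowest value of 17 of the 34 tested genes of the pathway (50%), against 51.2% of all tested genes. The targeted gene Cnr2, the Gi-coupled receptor itself, was at 9.24, 1.6 and 3.84 CPM (counts scaled to one library size, with TMM factors from edgeR) in CB2 KO replicates 1 to 3, against 9.32, 17.4 and 15.8 CPM in WT replicates 1 to 3. The library labelled CB2 KO replicate 1 thus came close to WT replicate 1 for that gene, and that library keeps its label throughout. All 12 listed ILC2 markers, among them Gata3 and Il1rl1, exceeded 1 CPM in every library. They summed to 12877 to 15214 CPM in CB2 KO and 12527 to 13792 CPM in WT, and 1 of them was higher in CB2 KO without overlap. Gata3 was lower without overlap, at 987, 932 and 972 CPM in CB2 KO, against 994, 1083 and 1095 CPM in WT. Its log2 fold change was -0.13 (SE 0.06). The summed markers of macrophages and monocytes lay at 150 to 170 CPM in CB2 KO and 12.1 to 59.2 CPM in WT for the 6 of 10 listed genes found in the table; Lyz2 and Chil3 were higher in CB2 KO without overlap, and Siglecf and Mrc1 were at 0 in at least 1 library. Most of the CB2 KO sums came from Chil3, at 143, 108 and 135 CPM in CB2 KO replicates 1 to 3. In WT replicates 1 to 3 Chil3 was at 0.559, 8.68 and 47.5 CPM. Those of mast cells and basophils lay at 61.6 to 122 CPM in CB2 KO and 30.5 to 49.4 CPM in WT for all 10 listed genes; 3 of them were higher in CB2 KO without overlap, and Mcpt4, Tpsab1, Fcer1a, Ms4a2, Gata2 and Hdc were at 0 in at least 1 library. Markers of T cells summed to 199 to 221 CPM in CB2 KO and 189 to 200 CPM in WT, with 2 of the 7 in the table higher in CB2 KO without overlap. The sums of B cell markers (1 of 4 higher in CB2 KO without overlap) and of NK cell, granulocyte and lung structural markers overlapped between genotypes. The macrophage and mast cell sums did not overlap between genotypes, and the part of these markers in the differences below was not tested. In sorted populations of this kind, fewer cells of a type and less RNA per cell cannot be told apart.

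Promoter sequences were looked up to see whether the genes share the cyclic AMP response element, the site that CREB-family factors bind. RefSeq windows (GRCm38.p6, 250 bases before to 50 after an annotated start) were found for 24 of the 35 genes. None was found for Gnai2, Pde3b, Pde7a, Crem, Sik1, Adora2a, Adcy6, Rgs1, Rgs14, Arrb1 and Arrb2, so these were not searched. The full element TGACGTCA was searched for, and its core TGACG, which reads CGTCA on the other strand; both strands were searched, and the core lies inside the full element. One gene of the 24, Prkar1a, held the full element (4.17%), against 3.71% of the genes tested in the fit that have a window and 2.03% of all genes with a window. The core was found for 13 of the 24 (54.2%), against 36.3% of the tested genes and 23.0% of all genes. Counted by window, since several of these genes have more than one start, it was in 17 of 47 windows (36.2%), against 31.6% of the windows of tested genes and 20.8% of all windows. The match is a description of letters and does not show binding. The windows of Gnas and Gnb1 are printed because, of the genes with non-overlapping groups that have a window, these held a core site. That of Prkar1a is printed because it alone of the 24 held the full element. Capitals mark the core sites and the full element, 5′ to 3′ on the plus strand. The windows lie at chr2:174329756-174330055 for Gnas, chr4:155491111-155491410 for Gnb1 and chr11:109650699-109650998 for Prkar1a. Of the 4 windows of Gnas, 3 held a core site, and 1 of these is printed. Of the 6 windows of Prkar1a, 2 held the full element, and 1 of these is printed.
Gnas: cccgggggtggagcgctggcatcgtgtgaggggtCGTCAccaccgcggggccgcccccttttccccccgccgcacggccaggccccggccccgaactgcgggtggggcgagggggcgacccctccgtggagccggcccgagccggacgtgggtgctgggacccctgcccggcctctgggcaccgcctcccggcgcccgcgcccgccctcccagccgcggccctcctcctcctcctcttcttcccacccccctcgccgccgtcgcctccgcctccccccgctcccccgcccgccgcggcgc
Gnb1: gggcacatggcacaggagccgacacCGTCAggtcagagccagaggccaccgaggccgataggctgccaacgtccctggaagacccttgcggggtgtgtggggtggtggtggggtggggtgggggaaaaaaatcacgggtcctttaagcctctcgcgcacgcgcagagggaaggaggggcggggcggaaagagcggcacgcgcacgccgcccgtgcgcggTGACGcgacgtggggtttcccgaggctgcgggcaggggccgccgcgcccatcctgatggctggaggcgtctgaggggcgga
Prkar1a: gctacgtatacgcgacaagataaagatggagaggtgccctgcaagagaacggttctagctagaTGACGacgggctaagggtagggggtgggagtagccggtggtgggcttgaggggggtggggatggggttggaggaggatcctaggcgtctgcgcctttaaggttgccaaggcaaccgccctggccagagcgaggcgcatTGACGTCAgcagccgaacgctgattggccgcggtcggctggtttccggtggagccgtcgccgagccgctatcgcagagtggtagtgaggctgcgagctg
The single window of Pde4d held neither motif.

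No gene of the pathway passed the test of CB2 KO against WT over all genes. The count was 0 of 34 at an adjusted p under 0.05 (the quasi-likelihood test of edgeR, adjusted by Benjamini-Hochberg), where 0.107% of all tested genes were called. At an unadjusted p under 0.05 there were 7 of 34 (20.6%), 2 at a higher and 5 at a lower level in CB2 KO, where 8.59% of all tested genes were. The same 7 were those whose CB2 KO and WT libraries did not overlap, which holds for 14.1% of all tested genes. Of these, Pde3b and Crem were higher in CB2 KO, where 6.91% of all genes were higher without overlap, and Gnai2, Gnas, Gnb1, Pde4d and Pde7a were lower, where 7.2% of all genes were. DESeq2, run on the same counts, called 3 of the 34, Crem, Gnas and Pde7a (8.82%), where it called 2.58% of the genes to which it gave an adjusted p; limma-voom called 0. The median log2 fold change was -0.15 over the 34 genes and 0.00 over all tested genes, with 12 genes positive and 22 negative. The median over the 34 was -0.05 without CB2 KO replicate 2 or without WT replicate 2, and -0.09 without CB2 KO replicate 1.

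**Figure D1:**
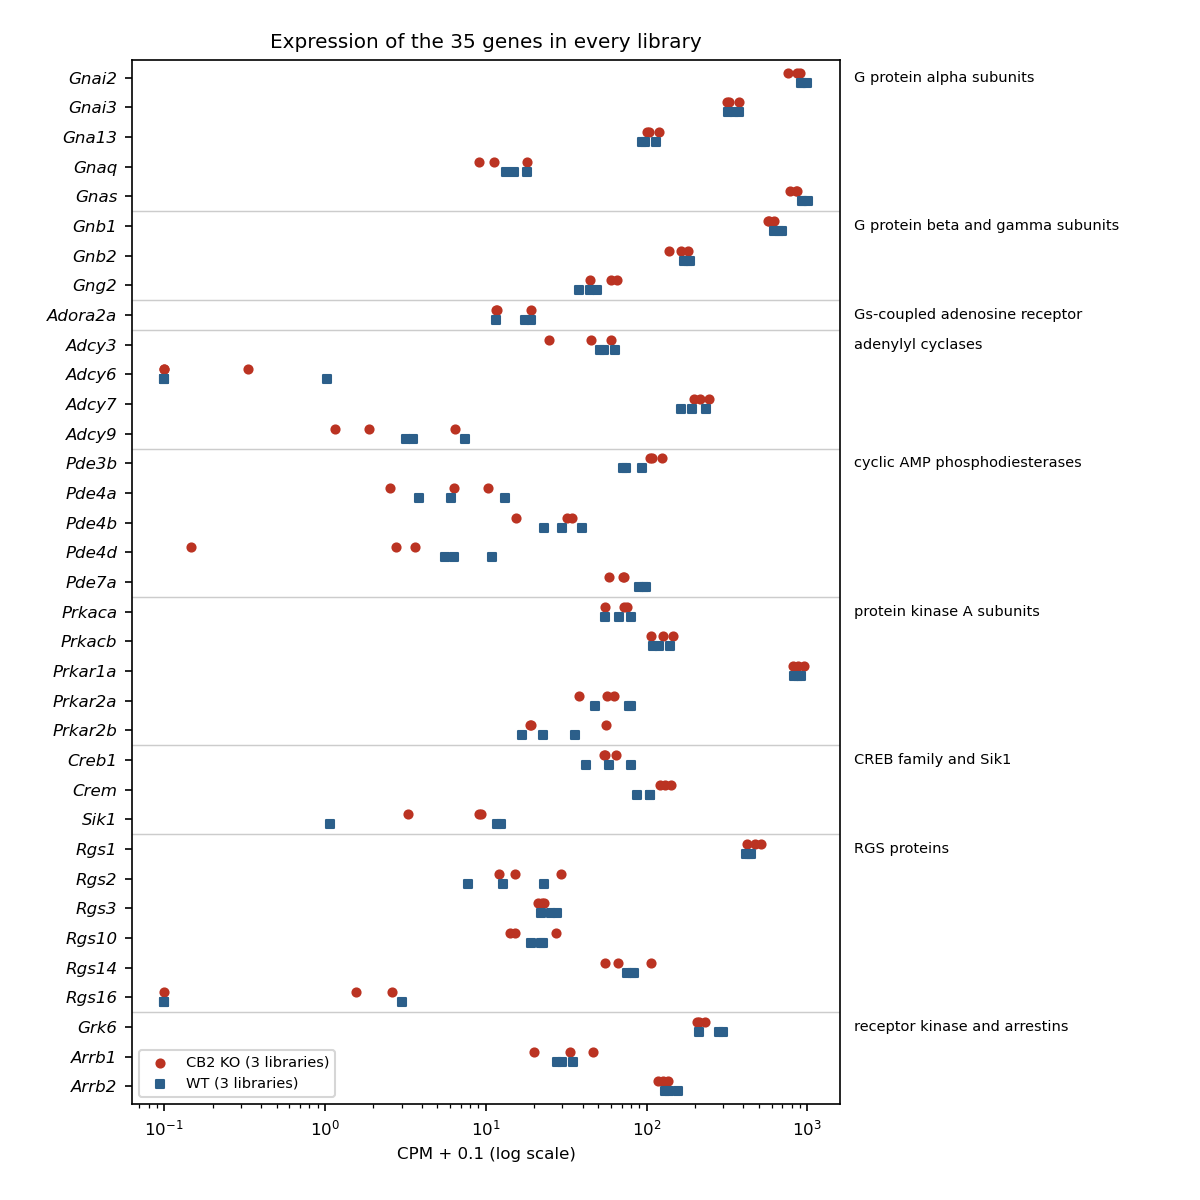
Expression of the 35 genes in every library, as CPM plus 0.1 on a log axis, with CB2 KO libraries as red circles above WT libraries as blue squares, ordered by role. Gnas, Gnai2 and Prkar1a lie near 1000 CPM in both groups, while Adcy6 and Rgs16 are at 0 in several libraries.

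Among the alpha subunits, the inhibitory Gnai2 and the stimulatory Gnas had lower means in CB2 KO with no overlap between groups. Gnai2, which encodes the main Gi alpha subunit of leukocytes (chr9:107614125-107635367, minus strand, mm10), was at 756, 866 and 895 CPM in CB2 KO replicates 1 to 3, against 917, 991 and 932 CPM in WT replicates 1 to 3. The log2 fold change was -0.18 (SE 0.07) and did not pass the test (edgeR, Benjamini-Hochberg adjusted p = 0.58). The library labelled CB2 KO replicate 1 was the lowest of the 6, and without it the log2 fold change was -0.10 (SE 0.06).

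Gnas, the gene of the Gs alpha subunit (chr2:174284320-174346744, plus strand), was at 867, 782 and 852 CPM in CB2 KO, against 928, 1007 and 943 CPM in WT. Its log2 fold change was -0.20 (SE 0.06) with an adjusted p of 0.446 in the edgeR test (Benjamini-Hochberg), and -0.23 without CB2 KO replicate 1. DESeq2 gave an adjusted p of 0.0452 for the same gene. Counts of Gnas join transcripts from several starts, and its exons overlap those of Nespas and Gm20721 on the other strand, so with the strand setting unknown part of the reads may belong to these.

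The ratio of Gnas to Gnai2 overlapped between genotypes. Per kilobase of merged exons, the scale used to compare levels between genes, it was 0.388, 0.305 and 0.322 in CB2 KO and 0.342, 0.344 and 0.342 in WT. The merged exons of Gnas span 11186 bases, joined over several starts, against 3779 for Gnai2. The size of this ratio and the Gnas share below therefore depend on that length, while in CPM the 2 genes were at similar levels. Within the class, Gnai2 made up 52.9 ± 2.01% of the summed level per kilobase in CB2 KO and 54.2 ± 1.79% in WT (mean ± SD, n = 3 each), and Gnas 17.8 ± 1.87% in CB2 KO and 18.6 ± 0.661% in WT. The second inhibitory subunit gene, Gnai3, averaged 340 ± 31.5 CPM in CB2 KO and 350 ± 29.4 CPM in WT. Gna13, an alpha subunit gene of a further class, averaged 107 ± 10.2 CPM in CB2 KO and 102 ± 11.3 CPM in WT. Gnaq, which couples receptors to phospholipase C, was scarce at 12.7 ± 4.68 CPM in CB2 KO and 15.4 ± 2.39 CPM in WT. The 5 alpha subunits together summed to 392, 436 and 430 CPM per kilobase in CB2 KO, against 462, 467 and 457 in WT. The sum was thus lower in each CB2 KO library than in each WT library. Gnai2 and Gnas, already without overlap, made up most of it, so it is not a separate result. Gnai3, Gna13 and Gnaq overlapped between groups.

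Gnb1, the most abundant of the beta and gamma genes per kilobase (chr4:155491361-155559269, plus strand), was at 575, 619 and 570 CPM in CB2 KO, against 667, 621 and 692 CPM in WT. CB2 KO replicate 2 and WT replicate 2 nearly met, and the log2 fold change of -0.16 (SE 0.06) did not pass (edgeR, Benjamini-Hochberg adjusted p = 0.553); it was -0.15 without CB2 KO replicate 1. Gnb1 lies on the chromosome of Cnr2, 19.6 Mb away, and Pde4b and Rgs3 are the other 2 of the 35 genes on that chromosome, at 33.3 and 73.2 Mb. Gnb2, another beta subunit gene, averaged 161 ± 21.7 CPM in CB2 KO and 179 ± 7.73 CPM in WT. Gng2, a gamma subunit gene, ran the other way, at 65.5, 59.9 and 44.4 CPM in CB2 KO and 37.8, 44.5 and 49.2 CPM in WT. CB2 KO replicate 3 lay within the WT range. The log2 fold change of Gng2 was 0.39 with an SE of 0.21 (edgeR, Benjamini-Hochberg adjusted p = 0.657). Exons of Gng2 overlap those of Gm48283 on the other strand over 897 bases. With the strand setting unknown, part of the reads counted for Gng2 may belong to Gm48283.

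Adora2a, which encodes a Gs-coupled adenosine receptor and was the 1 receptor among the 35 genes, was at 11.5, 11.7 and 19.0 CPM in CB2 KO, against 11.5, 19.1 and 17.5 CPM in WT. Each group spanned about the same range, and its log2 fold change was -0.21 (SE 0.35).

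One adenylyl cyclase gene, Adcy7, supplied most of its class in every library. It made up 87.6, 74.8 and 81.0% of the cyclase level per kilobase in CB2 KO, against 74.0, 76.2 and 73.2% in WT, and the ranges overlapped. Its expression was 246, 198 and 214 CPM in CB2 KO, against 193, 235 and 163 CPM in WT, with a log2 fold change of 0.15 (SE 0.15). Adcy3 was at 24.7, 59.7 and 45.2 CPM in CB2 KO, against 54.1, 63.6 and 51.2 CPM in WT. CB2 KO replicate 1 alone stood low for Adcy3; the log2 fold change was -0.38 (SE 0.30) with it and -0.09 (SE 0.20) without it. Exons of Adcy3 overlap those of Cenpo on the other strand over 1380 bases, so counts of Adcy3 are uncertain. Adcy9 averaged 3.05 ± 2.85 CPM in CB2 KO and 4.63 ± 2.37 CPM in WT. Adcy6 had 0, 0 and 4 counts in CB2 KO and 0, 19 and 0 in WT and was not tested; a count of 0 allows up to 0.14 to 0.174 CPM at these depths, covering counting error only. The summed cyclase level was 40.1 ± 1.35 CPM per kilobase in CB2 KO and 39.2 ± 6.37 in WT.

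Of the 5 phosphodiesterase genes, none passed the edgeR test over all genes; Pde3b was higher and Pde7a and Pde4d lower in CB2 KO without overlap, and Pde4a and Pde4b overlapped. Pde7a, a cyclic AMP-specific enzyme found in T cells among other tissues (chr3:19223108-19311322, minus strand), was at 57.9, 70.8 and 72.4 CPM in CB2 KO, against 98.9, 96.1 and 90.3 CPM in WT. All CB2 KO libraries were below all WT libraries, and the log2 fold change was -0.51 (SE 0.14), the smallest p among the 34 genes, but the adjusted p was 0.389 in the edgeR test (Benjamini-Hochberg). Without CB2 KO replicate 1 it was -0.41 (SE 0.13). DESeq2 called it with an adjusted p of 0.0117, while limma-voom gave 0.437 with the same adjustment.

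Pde3b, whose product is inhibited by cyclic GMP (chr7:114415281-114539251, plus strand), was at 125, 108 and 105 CPM in CB2 KO, against 94.2, 74.4 and 70.8 CPM in WT. Here each CB2 KO library was above each WT library. The log2 fold change was 0.49 (SE 0.15) and did not pass (edgeR, Benjamini-Hochberg adjusted p = 0.451; DESeq2, adjusted p = 0.0515), and it was 0.41 (SE 0.16) without CB2 KO replicate 1.

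Pde4d was scarce, at 2.68, 0.0472 and 3.55 CPM in CB2 KO (54, 1 and 61 counts), against 5.5, 6.24 and 10.8 CPM in WT (118, 128 and 190 counts). Its product is one of the PDE4 enzymes, the main cyclic AMP phosphodiesterases targeted by drugs in inflammation. Its log2 fold change of -1.88 (SE 0.72; edgeR, Benjamini-Hochberg adjusted p = 0.519) depended on CB2 KO replicate 2, with 1 count, and was -1.25 without that library and -2.17 without CB2 KO replicate 1. Pde4b, the PDE4 gene with the most transcript here, was at 34.5, 15.4 and 31.8 CPM in CB2 KO, against 22.9, 39.6 and 29.9 CPM in WT, and the groups overlapped. Pde4a averaged 6.35 ± 3.96 CPM in CB2 KO and 7.61 ± 4.88 CPM in WT, spreading over 4.25-fold in CB2 KO and 3.5-fold in WT.

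Summed per kilobase, the 5 phosphodiesterases reached 25.1, 23.3 and 25.5 CPM per kilobase in CB2 KO, against 27.4, 25.6 and 23.6 in WT. Pde3b made up 54.9, 51.0 and 45.0% of that sum in CB2 KO, against 37.7, 31.8 and 32.8% in WT. Pde7a made up 29.8, 39.2 and 36.7% in CB2 KO, against 46.5, 48.4 and 49.3% in WT. Of these 5, Pde3b was thus the leading transcript in each CB2 KO library and Pde7a in each WT library. Pde8a, a phosphodiesterase gene outside this sum, averaged 6.61 ± 3.03 CPM per kilobase in CB2 KO and 8.35 ± 1.41 in WT. The ratio of Pde3b to Pde7a per kilobase was 1.84, 1.3 and 1.23 in CB2 KO, against 0.81, 0.658 and 0.666 in WT. This ratio was chosen after the values had been seen and is given with no test.

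**Figure D2:**
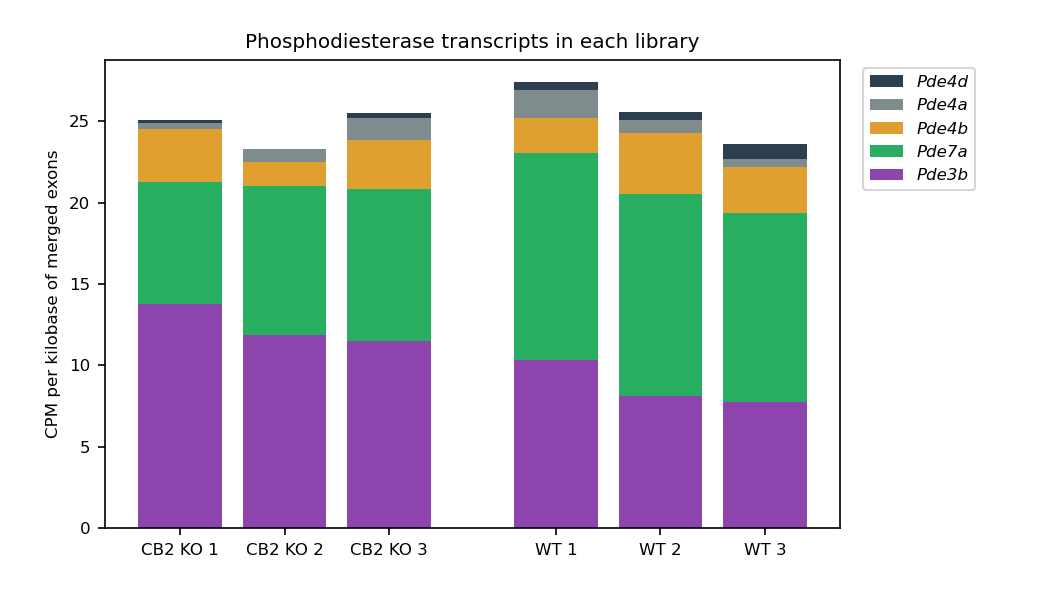
Stacked bars of the 5 phosphodiesterase genes in each library, in CPM per kilobase of merged exons, with CB2 KO libraries on the left and WT libraries on the right. The full height lies between 23.3 and 25.5 in CB2 KO and between 23.6 and 27.4 in WT, while the Pde3b part at the bottom is taller in CB2 KO and the Pde7a part above it is taller in WT.

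Protein kinase A is built from catalytic subunits and the regulatory subunits that hold them inactive until cyclic AMP binds. Prkar1a, the regulatory subunit gene whose promoter window holds the full element, was at 815, 953 and 881 CPM in CB2 KO, against 875, 829 and 913 CPM in WT. The groups overlapped fully; the log2 fold change was 0.02 (SE 0.07), the smallest SE in this class. It made up 77.7 ± 1.78% of the PKA level per kilobase in CB2 KO and 77.5 ± 3.83% in WT. Prkar2a, with the smallest p of the class, was at 37.9, 56.8 and 63.1 CPM in CB2 KO, against 47.4, 79.5 and 77.8 CPM in WT, and its log2 fold change was -0.37 (SE 0.27; -0.18 without CB2 KO replicate 1). Prkar2b was at 56.0, 19.1 and 18.7 CPM in CB2 KO, against 22.5, 35.6 and 16.6 CPM in WT. CB2 KO replicate 1 alone stood high, and its log2 fold change was 0.33 (SE 0.52) with that library and -0.41 (SE 0.38) without it. The catalytic genes averaged 67.4 ± 10.8 CPM in CB2 KO and 67.4 ± 12.6 CPM in WT for Prkaca, and 126 ± 20.3 CPM in CB2 KO and 123 ± 15.2 CPM in WT for Prkacb. Regulatory over catalytic transcript per kilobase was 5.33 ± 0.142 in CB2 KO and 5.43 ± 0.859 in WT (n = 3 each).

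Of the nuclear factors, Crem had the clearest separation. It encodes the cyclic AMP response element modulator, which gives both activators and, from an internal promoter, the repressor ICER, itself a cyclic AMP-induced transcript; counts over the whole gene do not tell these apart. Crem (chr18:3266048-3337748, minus strand) was at 141, 131 and 121 CPM in CB2 KO, against 86.8, 105 and 105 CPM in WT. Each CB2 KO library was above each WT library, with a log2 fold change of 0.41 (SE 0.13; edgeR, Benjamini-Hochberg adjusted p = 0.451), and 0.36 (SE 0.14) without CB2 KO replicate 1. DESeq2 called Crem with an adjusted p of 0.0375. Gm6225 overlaps its exons on the other strand but held a mean of 34.1 counts, against 2262 for Crem.

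Creb1, the constitutive factor, averaged 58.0 ± 5.81 CPM in CB2 KO and 60.1 ± 19.1 CPM in WT. Sik1, a kinase gene induced through CREB whose product holds back CREB coactivators, was at 3.18, 9.2 and 8.95 CPM in CB2 KO, against 0.978, 11.6 and 12.3 CPM in WT. Replicate 1 was the lowest of its group in both genotypes, and Sik1 changed direction with the fit used, from -0.18 (SE 0.74) on the log2 scale to 0.38 with limma-voom.

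**Figure D3:**
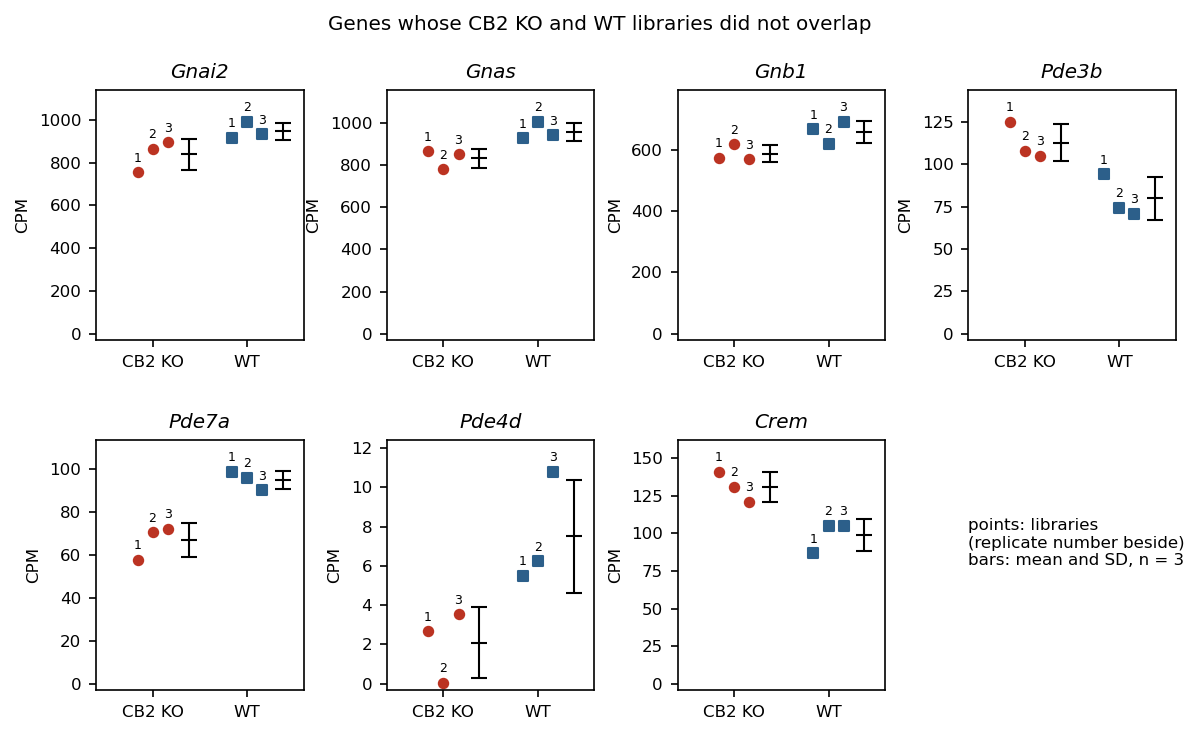
CPM in each library for the 7 genes whose CB2 KO and WT libraries did not overlap, with CB2 KO left of WT, the replicate number above each point and the mean with its SD (n = 3) beside the points. Pde3b and Crem lie higher in CB2 KO and Gnai2, Gnas, Gnb1, Pde7a and Pde4d lower, and CB2 KO replicate 2 of Pde4d lies near 0.

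The RGS genes showed no separation between genotypes. Rgs1, which encodes a regulator that dampens chemokine receptor signalling in lymphocytes, was at 470, 517 and 421 CPM in CB2 KO, against 436, 444 and 416 CPM in WT. Its log2 fold change was 0.12 (SE 0.09), and the WT libraries lay close together at the lower end of the CB2 KO values. Of the level per kilobase summed over the 6 RGS genes described here, Rgs1 made up 65.5 ± 7.86% in CB2 KO and 62.1 ± 1.01% in WT. Next among the 6 came Rgs14, at 16.9 ± 3.56% in CB2 KO and 18.9 ± 1.16% in WT, and Rgs10, at 10.4 ± 2.53% in CB2 KO and 12.3 ± 1.2% in WT. Rgs19 and Rgs18, RGS genes outside this sum, had higher mean levels than Rgs14. In CPM per kilobase, Rgs19 averaged 31.4 ± 3.49 in CB2 KO and 33.1 ± 1.83 in WT. Rgs18 averaged 20.8 ± 6.41 in CB2 KO and 25.8 ± 6.81 in WT, and Rgs14 averaged 17.9 ± 6.45 in CB2 KO and 18.9 ± 0.979 in WT. Rgs14, which also binds Gi alpha subunits in their inactive state, was at 107 CPM in CB2 KO replicate 1 and at 66.2 and 54.7 CPM in the other two, on either side of the 75.5 to 83.5 CPM of WT. Its log2 fold change was -0.06 (SE 0.25) and -0.39 (SE 0.16) without CB2 KO replicate 1. Rgs2, an inhibitor of Gq signalling, varied within groups by 2.44-fold in CB2 KO and 2.98-fold in WT, with means of 18.8 ± 9.22 CPM in CB2 KO and 14.5 ± 7.78 CPM in WT. Rgs3 averaged 22.0 ± 0.986 CPM in CB2 KO and 24.9 ± 2.88 CPM in WT. Rgs16 had 51, 31 and 0 counts in CB2 KO and 0, 60 and 0 in WT, too few for a direction.

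Grk6, a kinase that phosphorylates activated receptors, was at 211, 230 and 205 CPM in CB2 KO, against 211, 298 and 282 CPM in WT. WT replicate 1 lay within the CB2 KO range while the other WT libraries were higher. The log2 fold change of -0.29 (SE 0.14) did not pass (edgeR, Benjamini-Hochberg adjusted p = 0.632). It was -0.27 without CB2 KO replicate 1. With other libraries left out it ran from -0.43 (without WT replicate 1) to -0.19 (without WT replicate 2). Arrb2, the more abundant arrestin gene, averaged 127 ± 8.84 CPM in CB2 KO and 142 ± 13.8 CPM in WT. Arrb1 averaged 33.1 ± 13.2 CPM in CB2 KO and 30.6 ± 3.65 CPM in WT. Per kilobase, Arrb2 exceeded Arrb1 10.1 to 25.1-fold in CB2 KO and 17.2 to 19.8-fold in WT.

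Across the 35 genes, the order of levels per kilobase was the same at the top in both genotypes. Gnai2 came first at 222 ± 19.4 CPM per kilobase in CB2 KO and 250 ± 10.4 in WT, followed by Prkar1a at 204 ± 16.0 in CB2 KO and 202 ± 9.75 in WT. These neighbours did not differ beyond their spread in CB2 KO. Gnb1 followed at 138 ± 6.31 in CB2 KO and 155 ± 8.39 in WT, then Gnai3 at 104 ± 9.64 in CB2 KO and 107 ± 9.01 in WT. Gnas lay lower, at 74.5 ± 4.06 in CB2 KO and 85.8 ± 3.78 in WT, a place that depends on its 11186 merged exon bases. Gnai2 and Prkar1a stood above 98.2% and 97.8% of all tested genes on this scale, and Rgs1 above 91.7%. At the lower end Pde4d stood above 5.8%. Over the 34 tested genes, the median spread between replicates (CV of the CPM) was 16.1% in CB2 KO and 12.7% in WT. It was 24.5% in CB2 KO and 21.8% in WT over all tested genes. These sets were not matched on expression level, so the lower spread cannot be read as particular to the pathway.

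**Figure D4:**
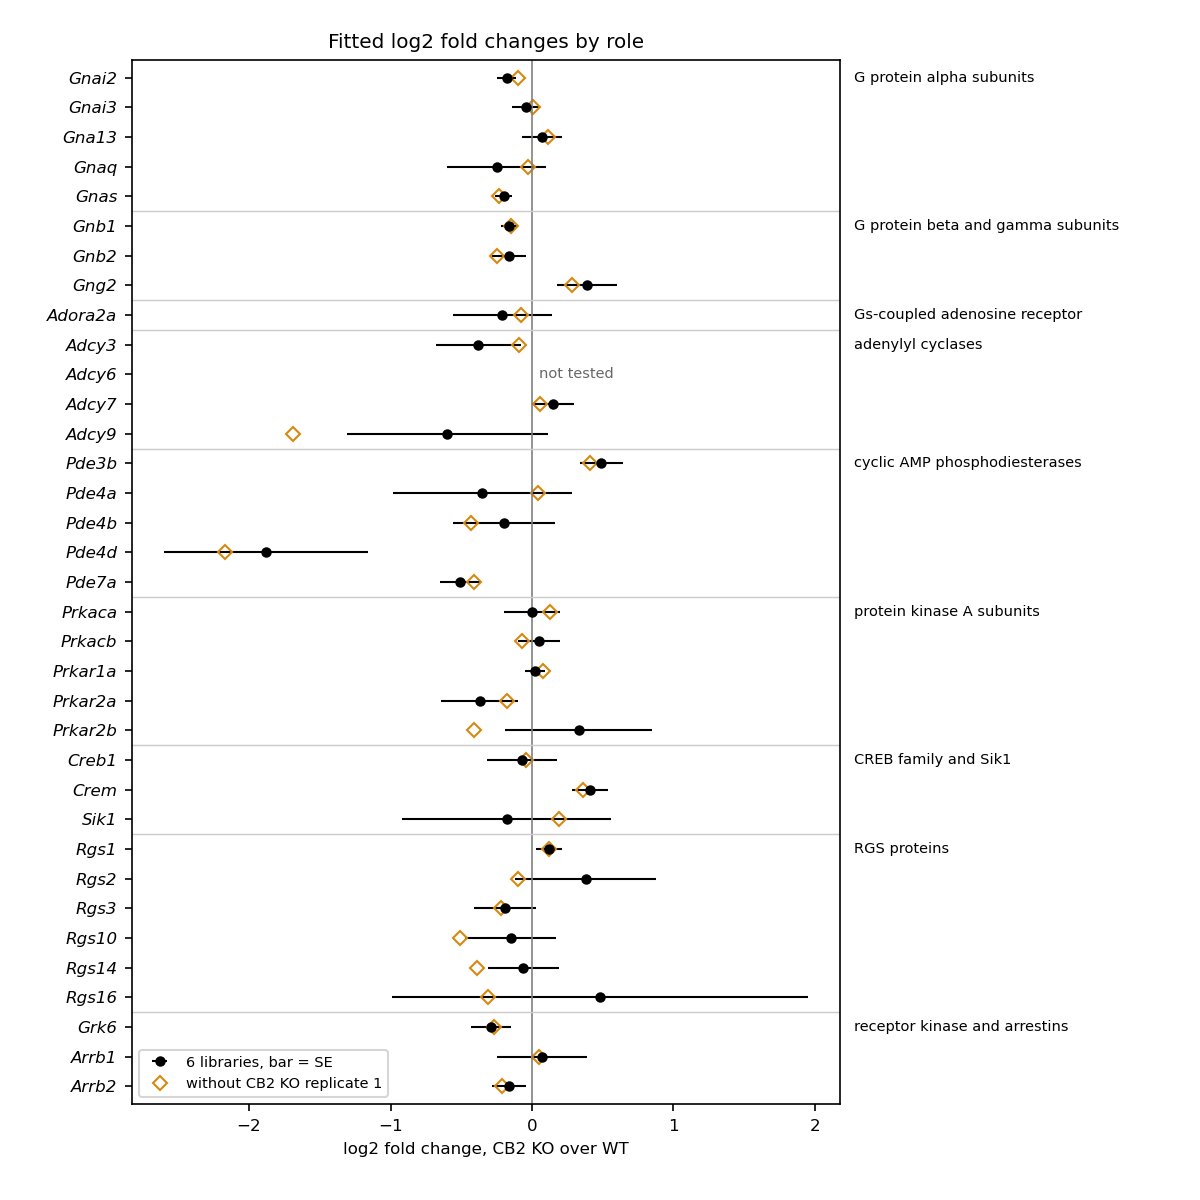
Fitted log2 fold changes of CB2 KO over WT by role, with bars of 1 SE (black, 6 libraries) and the value without CB2 KO replicate 1 (open diamonds); values right of the line are higher in CB2 KO. The open diamond lies across the line from the value over 6 libraries for Gnai3, Pde4a, Prkaca, Prkacb, Prkar2b, Sik1, Rgs2 and Rgs16. It stays on the same side for the other tested genes. For Pde3b, Pde7a, Pde4d, Crem, Gnas, Gnai2 and Gnb1 the separated groups all but fixed this in advance.

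A further 113 genes of the pathway were listed, of which 83 were in the table and 69 were tested. Of the 69, 0 passed the test over all genes (edgeR with Benjamini-Hochberg adjustment), and 0 were called by DESeq2 or by limma-voom. At an unadjusted p under 0.05 there were 3 of 69 (4.35%), below the 8.59% of all tested genes, and 6 of 69 did not overlap between genotypes (8.7%), where 14.1% of all tested genes did not. Their median log2 fold change was -0.04, with 31 positive and 38 negative. The 3 were Cnr2, S1pr1 and Ptgir. Cnr2 had a log2 fold change of -1.52 (SE 0.56), and -2.42 without CB2 KO replicate 1.

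Ptgir, the gene of the Gs-coupled prostacyclin receptor, was at 208, 253 and 242 CPM in CB2 KO, against 272, 284 and 269 CPM in WT. All CB2 KO libraries were lower; the log2 fold change was -0.23 (SE 0.09; edgeR, Benjamini-Hochberg adjusted p = 0.573), and -0.15 without CB2 KO replicate 1. S1pr1, the Gi-coupled receptor that guides lymphocyte exit from tissues, was at 62.0, 36.1 and 32.8 CPM in CB2 KO, against 10.1, 33.8 and 19.3 CPM in WT, and the groups overlapped. Its log2 fold change was 1.07 (SE 0.44), and 0.72 without CB2 KO replicate 1 or 0.70 without WT replicate 1. Gnaz, an inhibitory alpha subunit gene, was at 5.81, 18.5 and 12.8 CPM in CB2 KO, against 3.4, 5.17 and 8.38 CPM in WT (log2 fold change 1.19, SE 0.56). It was 1.54 without CB2 KO replicate 1 and 0.72 without CB2 KO replicate 2.

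Of the 6 genes without overlap, Gnb4 and Akap13 were higher in CB2 KO and Gng5, Gpr65, Ptgir and Cnr2 lower. Gnb4, a beta subunit gene, was at 69.9, 106 and 72.9 CPM in CB2 KO, against 58.7, 68.7 and 67.9 CPM in WT, and CB2 KO replicate 2 alone stood well above the rest (log2 fold change 0.37, SE 0.20, and 0.13 without that library). Gng5, a gamma subunit gene, was at 148, 146 and 139 CPM in CB2 KO, against 162, 156 and 163 CPM in WT (log2 fold change -0.15, SE 0.09). Gpr65, the gene of a proton-sensing Gs-coupled receptor, was at 19.3, 20.7 and 16.0 CPM in CB2 KO, against 27.2, 22.5 and 27.9 CPM in WT (log2 fold change -0.45, SE 0.24).

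Akap13, a PKA anchoring protein gene, was at 260, 246 and 297 CPM in CB2 KO, against 240, 239 and 211 CPM in WT. Its groups did not overlap, and its log2 fold change was 0.21 (SE 0.10). Rap1b, the small G protein switched by the cyclic AMP sensor Epac, was abundant and close in the groups, at 745, 723 and 830 CPM in CB2 KO, against 785, 789 and 839 CPM in WT. Sik3, a kinase gene related to Sik1, was at 67.0, 75.7 and 92.2 CPM in CB2 KO, against 81.1, 99.4 and 88.2 CPM in WT, and overlapped likewise. In the remaining lists the smallest p belonged to Adcy4, Pde1c, Rgs9 and Grk5, each below 8 CPM in every library, and to Areg. Areg, an amphiregulin gene that stood for the immediate CREB targets, was at 93.3, 87.1 and 56.7 CPM in CB2 KO, against 92.5, 104 and 88.7 CPM in WT. Of the 6 tested targets of that list, 3 had a positive and 3 a negative log2 fold change.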

How the data were processed

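RNA of sorted lung ILC2s was sequenced from 3 CB2 KO and 3 WT samples, grouped by their titles. The authors deposited estimated counts per gene made by an expectation-maximization step in Partek (per the file headers), and a normalized signal (estimated count plus 1 over a factor per library). The submitters' processing notes name CASAVA 1.8.2, STAR (written as 3.5.3), Partek and mm10; a strand setting is not stated there. Libraries were made from 10 ng RNA, per the labels' protocols.

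Estimated counts were rounded and tested with edgeR 4.0.16 in R 4.3.3 (TMM, filterByExpr, robust glmQLFit without the legacy option, glmQLFTest, Benjamini-Hochberg over 14084 genes, threshold 0.05), and the workflow was tested on simulated data. The SE is the log2 fold change over the root of F. CPM use TMM-scaled library sizes, and levels per kilobase divide by merged exons of GENCODE M21, whose positions matched the table's for all 35 genes. Exact permutation of 3 against 3 libraries cannot give p below 0.1, so no gene was tested singly beyond Cnr2 (exact two-sided permutation test, p = 0.1). Alternatives used DESeq2 1.42.0, limma 3.58.1, other factors, no filter, a replicate block and each library left out. Overlaps and transcripts of at least 90% identity over 200 bases were searched in GENCODE; apart from overlapping antisense genes, the copies found (Gnb1-ps2, Gng2-ps1, Prkaca-ps1) held at most 33.5 mean counts. Values are printed for every library for those of the 35 genes with non-overlapping groups, the most abundant and the smallest-p gene of each role, and Adora2a, Crem and Sik1. Of the further lists, the smallest-p gene of each was named, those below 8 CPM without values. Gng2, Pde4b, Prkar2b, Rgs14, Rgs16, Adcy6, S1pr1, Gnb4, Gng5, Gpr65, Rgs18, Rgs19, Pde8a, Gata3 and Chil3 were added after their values were seen. The genes and lists were chosen with earlier results of these data known.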

Additional observations from a re-analysis of the deposited data

How the results depend on the processing

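The count of 0 genes of the pathway past the threshold held in 13 of 14 alternatives; DESeq2 called 3 (Crem, Gnas and Pde7a, log2 fold changes 0.42, -0.19 and -0.50), with the cause not tested. The 69 further pathway genes stayed at 0 in all 14. Over all genes the count was 15, against 3 with the replicate block, 363 with DESeq2, 23 with limma on the authors' normalized signal and 3 to 8 with a library left out. Same-numbered libraries deviated together only weakly (r = 0.074, 0.031 and 0.02), and CB2 KO replicates 2 and 3 did not correlate best with their own numbers, so the numbers were not taken as pairs; the block called 0 of the 34 genes. With a library left out, 4 to 8 of the 34 genes had an unadjusted p under 0.05, 8 to 13 did not overlap, against 7 with all libraries, (fewer libraries make this easier), and the median log2 fold change ran from -0.15 to -0.05. The 7 genes without overlap kept their direction in all 14 alternatives. Their separation all but fixed this in advance, so it is no further support for them. In all, 15 of the 34 changed sign in at least 1, nearly all with a library left out: Gnai3 (-0.12 to 0.02), Gna13 (-0.01 to 0.17), Pde4a (-0.84 to 0.31), Pde4b (-0.43 to 0.11), Prkaca (-0.14 to 0.15), Prkacb (-0.07 to 0.15), Prkar1a (-0.04 to 0.08), Prkar2b (-0.41 to 0.67), Creb1 (-0.26 to 0.18), Sik1 (-0.76 to 0.20), Rgs2 (-0.10 to 0.92), Rgs10 (-0.51 to 0.01), Rgs14 (-0.39 to 0.11), Rgs16 (-0.31 to 7.78) and Arrb1 (-0.22 to 0.36); of the 69 further genes, 29 did, among them Adcy4 (-0.08 to 0.47). Prkaca was at 0.01 with RLE or upper-quartile factors or DESeq2 and 0.00 with limma-voom; Sik1 at 0.38 with limma-voom and 0.09 with the authors' signal; Arrb1 at -0.01 with limma-voom. A count of 0 allows up to 0.14 to 0.174 CPM at these depths.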
